A study of Mus musculus with 33 samples.

Results

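The genes described here encode 10 amino acid transporters of the cell surface: Slc7a5, Slc3a2, Slc7a1, Slc7a2, Slc7a6, Slc7a11, Slc38a1, Slc38a2, Slc38a4 and Slc43a1. The set is named for carriers of growing cells, but Slc7a2 and Slc38a4 are typical of liver. The genes were taken by symbol from a table of 21671 mouse genes, and all 10 were in it. The study asked how MYC and β-catenin change gene expression in mouse hepatocytes, and total RNA was sequenced from whole liver or liver nodules of C57BL/6 mice. In the day 4 arm, mice of 6 to 8 weeks received 1e+11 particles of AAV8-TBG-CRE into a vein. This virus carries Cre recombinase under the TBG promoter, which is active in hepatocytes. Livers taken on day 4 came from wild-type mice (WT, n = 5), from mice with the beta-cat Ex3 allele (Ex3, n = 5), from mice with R26-lslMYC (MYC, n = 5) and from mice with R26-lslMYC/beta-cat Ex3 (MYC+Ex3, n = 5). All 4 groups, wild type included, received the virus. In the Ex3 allele Cre removes exon 3 of the β-catenin gene Ctnnb1, which leaves a stabilised protein, and in the lslMYC allele Cre switches on a MYC transgene. In the tumour arm, nodules came from mice with Alb-CreERT2/R26-lslMYC (n = 3) and from mice with both alleles, Alb-CreERT2/R26-lslMYC/beta-catEx3 (n = 3). Alb-CreERT2 is a Cre expressed from the albumin promoter and activated by 4-hydroxytamoxifen (4-OHT). The labels give the nodules no treatment time and no age. The comparison group was wild-type liver 4 days after intraperitoneal 4-OHT (n = 7), and its labels do not say whether these mice carried Alb-CreERT2. The labels do not say that the libraries of a group came from separate animals, so p-values measure the spread between these samples.

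Amino acids cross the plasma membrane through carriers, some of which exchange one amino acid for another and some of which move it together with sodium. Slc7a5 (LAT1) is the light chain of a heterodimer with Slc3a2 (4F2hc, CD98), and the pair imports leucine and other large neutral amino acids in exchange for intracellular glutamine. Leucine that enters this way activates mTORC1, the kinase complex that drives protein synthesis and growth. Slc3a2 is also the heavy chain for Slc7a6 and Slc7a11, so its level serves several light chains. The system A carriers of the Slc38 family take up glutamine, alanine and other small neutral amino acids with sodium, and Slc7a1 and Slc7a2 carry arginine, lysine and ornithine. Normal hepatocytes express little Slc7a5 and Slc7a1, and Slc7a2 and Slc38a4 are typical of liver.

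The table gives RPKM, a read count scaled by gene length and by the size of the library. Every RPKM of a gene was a whole number of reads times a constant for that gene and library, and the reads in genes recovered in this way came to 3.75 to 7.31 M (median 4.98 M) per day 4 liver and 6.65 to 9.82 M (median 8.25 M) per library of the tumour arm. The arms are on different RPKM scales and were compared separately. The highest RPKM of any gene was 220 to 396 at day 4 and 42.9 to 67.5 in the tumour arm, so abundant genes lie close together on this scale. Summed RPKM of the skin keratins Krt5, Krt14 and Krt17 was at least 3.95 in 10 of the day 4 livers (3 WT, 3 Ex3, 1 MYC and 3 MYC+Ex3) and at most 0.398 in the other 10. Values with a term for these keratin-bearing libraries, or from keratin-free libraries alone, are given where they end a call. Other moved values are given only in part. In keratin-free libraries MYC+Ex3 against MYC, never called, moved from 0.18 to -0.49 for Slc7a2 and from 0.07 to -0.29 for Slc38a4. By the higher of Xist and Ddx3y, males made up 2 WT, 3 Ex3, 3 MYC and 4 MYC+Ex3 livers, 4 of the 7 4-OHT livers, and among tumours 3 of 3 with MYC and 2 of 3 with MYC+Ex3. MYC liver replicate 5 held both transcripts (Xist 86.1 and Ddx3y 4.74 RPKM), and the MYC calls of Slc7a1 and Slc3a2 stood without it. The β-catenin target Axin2 was 18.4 ± 5.37 RPKM (SD, n = 5) in Ex3 and 3.32 ± 0.609 (n = 5) in WT livers, and the MYC target Ncl was 62.7 ± 23.2 (n = 5) in MYC livers against 19.5 ± 3.41 (n = 5) in WT. Mouse Myc itself was 3.99 ± 0.751 (n = 5) in MYC and 2.57 ± 1.22 (n = 5) in WT livers, a log2 change of 0.55 that did not pass the test (limma adjusted p = 0.208). All 8 hepatocyte markers were detected in every group.

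Promoter windows were searched for a MYC and an ATF4 motif as a description. RefSeq windows for GRCm38.p6, a later mouse build than the mm9 named by the submitters, matched 7 of the 10 genes with 11 windows of 250 bases before a gene start. Slc7a5, Slc7a2 and Slc38a1 had no entry. The E-box CACGTG, the preferred site of MYC, was present in 6.02% of all 32851 such windows, and the ATF4 element TGATGNAA, read on both strands, in 3.45%. Among the members, CACGTG occurred only in the Slc43a1 window, 64 bases before the start, and TGATGNAA only in that of Slc7a11, 66 and 47 bases before it. The 4 windows shown are those of Slc43a1, Slc7a1 and Slc7a6, which rose in tumours, and of Slc7a11 for contrast. Each is written 5′ to 3′ on the gene's strand with motif letters in capitals. They are chr2:84840073-84840322 (plus strand) for Slc43a1, chr5:148399905-148400154 (minus) for Slc7a1, chr8:106168604-106168853 (plus) for Slc7a6 and chr3:50443614-50443863 (minus) for Slc7a11.
Slc43a1: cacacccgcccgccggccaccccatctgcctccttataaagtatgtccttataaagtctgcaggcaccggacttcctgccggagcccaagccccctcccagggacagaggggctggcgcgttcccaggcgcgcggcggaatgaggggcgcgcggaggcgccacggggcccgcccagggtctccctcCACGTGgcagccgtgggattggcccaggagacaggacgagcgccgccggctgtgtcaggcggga
Slc7a1: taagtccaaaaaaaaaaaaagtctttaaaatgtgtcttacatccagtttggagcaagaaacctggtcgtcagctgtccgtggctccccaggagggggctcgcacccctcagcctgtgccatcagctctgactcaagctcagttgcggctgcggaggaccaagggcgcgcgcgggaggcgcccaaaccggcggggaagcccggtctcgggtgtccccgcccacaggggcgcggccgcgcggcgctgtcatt
Slc7a6: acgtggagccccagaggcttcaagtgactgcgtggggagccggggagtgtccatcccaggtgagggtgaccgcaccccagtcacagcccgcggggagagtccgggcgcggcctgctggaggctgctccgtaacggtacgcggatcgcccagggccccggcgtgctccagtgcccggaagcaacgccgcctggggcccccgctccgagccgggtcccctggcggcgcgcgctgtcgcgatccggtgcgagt
Slc7a11: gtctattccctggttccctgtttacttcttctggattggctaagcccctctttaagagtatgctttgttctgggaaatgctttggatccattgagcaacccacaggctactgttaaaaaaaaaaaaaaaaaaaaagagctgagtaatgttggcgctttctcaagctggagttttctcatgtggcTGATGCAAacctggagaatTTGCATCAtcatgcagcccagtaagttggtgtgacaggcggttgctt
A match describes these letters in this window, and the binding of a factor was not measured.

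Wild-type livers carried the 10 transcripts at very unequal levels. On the RPKM scale, which is per length, the mean over the 5 WT livers of day 4 ran from 178 for Slc38a4 through 117 for Slc7a2, 68.2 for Slc38a2 and 24.1 for Slc3a2 to 4.06 for Slc43a1. Below these came Slc7a5 at 2.17, Slc7a11 at 2.0, Slc38a1 at 1.27, Slc7a6 at 0.673 and Slc7a1 at 0.565. Slc3a2 (20.2 to 32.2) stood apart from Slc38a2 above it and Slc43a1 below it, as did Slc38a1 (0.946 to 1.57) from Slc7a11 above it and Slc7a6 below it, and the ranges of the other neighbours in this order overlapped. The 4-OHT livers had the same first 6 genes in the same order, from 29.7 for Slc38a4 to 0.895 for Slc7a5.

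At day 4, MYC was accompanied by higher Slc7a1 and Slc3a2, and MYC with Ex3 by higher Slc7a1 and Slc7a5, whereas no member was called with Ex3 alone. In tumours Slc7a5, Slc7a1, Slc7a6 and Slc43a1 were higher than in 4-OHT liver in both genotypes, and Slc3a2 in MYC+Ex3 tumours. The call of Slc7a6 in MYC tumours was lost under several alternatives, given with its values. These calls come from limma on log2(RPKM + 1) over all genes with an RPKM of at least 1 in at least 3 libraries of the arm, at an adjusted p under 0.05. That scale understates changes of low genes. In MYC against WT livers 2 of 10 members were called higher and 0 lower, beside 16.9% of 13688 genes called higher and 5.36% lower. In MYC+Ex3 against WT it was again 2 of 10 higher, beside 17.9% higher and 6.18% lower of all genes. In MYC+Ex3 against Ex3 it was 2 of 10 higher, beside 16.4% higher and 4.7% lower. The members' shares were thus near those of all genes. Slc7a1, which is in each of these counts, and Slc7a6 reached an RPKM of 1 in 3 livers only through livers with the MYC allele, so the counts over members give no support by themselves. In keratin-free libraries alone (2 WT, 2 Ex3, 4 MYC and 2 MYC+Ex3) the counts were 0 for MYC against WT, 3 for MYC+Ex3 against WT and 3 for MYC+Ex3 against Ex3. Over all genes these keratin-free fits called 1249, 3009 and 2310 in the same order. With limma array weights 6 members were called in each of the comparisons of MYC+Ex3 with WT and with Ex3, of which Slc7a2 and Slc38a4 were lower. Under these weights 6416 of the 13688 genes were called against WT and 6707 against Ex3. Against WT, Ex3 alone gave 0 of 10 by limma, and 0 at an unadjusted p under 0.05, beside 0.132% of all genes. MYC+Ex3 against MYC gave 0 of 10 by limma, 2 at an unadjusted p under 0.05 (Slc7a5 and Slc7a6), beside 0.19% of all genes. The interaction of MYC and Ex3 gave 0 of 10 by limma, 0 at an unadjusted p under 0.05 and 0% of all genes. The authors' deposited table likewise calls 0 members for Ex3 against WT and for MYC+Ex3 against MYC. Over all genes it has 98 of 12806 and 37 of 13383 with an adjusted p under 0.05. The median log2 change of the 10 members was 0.29 in MYC against WT (0.07 over all genes) and 0.02 in MYC+Ex3 against WT (0.05 over all genes).

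In the tumour arm Slc7a11 and Slc38a1 stayed under an RPKM of 1 and were not tested, which left 8 members. Slc7a1 and Slc7a6 reached that level in tumours alone, and Slc7a5 in 2 of the 7 4-OHT livers, so these 3 could pass the filter only if they were high in tumours, and neither the counts nor the medians over tested members give support by themselves. In MYC tumours 4 of 8 tested members were called higher than in 4-OHT liver, beside 36.2% of 11854 genes higher and 13.7% lower, 49.8% in all. In MYC+Ex3 tumours 5 of 8 were called higher, beside 42.3% higher and 18.4% lower, 60.6% in all. Between the tumour genotypes 1 of 8, Slc7a5, was higher in MYC+Ex3, a call lost when any 1 MYC+Ex3 tumour was left out, beside 2.02% higher and 2.1% lower, 4.13% in all. These comparisons share the 4-OHT livers or the MYC tumours, as those of day 4 share their groups. The median of all genes lay 0.19 above 0 in MYC tumours and 0.23 above 0 in MYC+Ex3 tumours, against medians of 0.61 and 1.03 over the 8 tested members. After rescaling of libraries by the median ratio, 49.4% and 50.6% of called genes were higher, in place of 72.6% and 69.7%. At day 4 rescaling moved the share higher from 75.9% to 58.4% in MYC, from 74.4% to 60% in MYC+Ex3 and from 77.7% to 64.8% in MYC+Ex3 against Ex3.

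**Figure D1:**
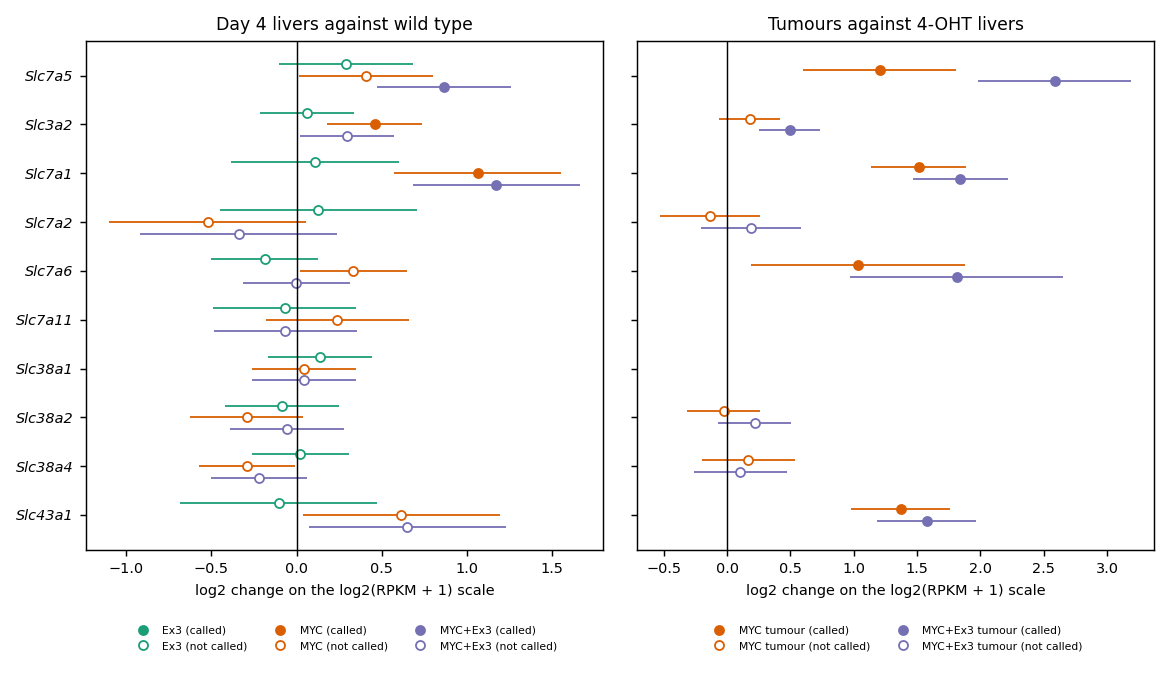
Log2 change (x axis, log2(RPKM + 1) scale) of each transporter gene (y axis) in day 4 livers against wild type (left, 5 libraries per group) and in tumours against 4-OHT livers (right, 3 tumours per genotype, 7 livers). Points are limma estimates, bars their 95% intervals, and filled points passed an adjusted p under 0.05; Slc7a5 in MYC+Ex3 tumours, at 2.59, lies farthest to the right.

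Slc7a5, the leucine carrier, rose in MYC+Ex3 livers. Its RPKM was 1.67, 2.14, 2.32, 1.5 and 3.21 in the 5 WT livers (26 to 50 reads each) and 2.14, 3.07, 3.16, 2.96 and 2.79 in Ex3 livers. It was 3.69, 2.50, 3.01, 1.98 and 5.12 in MYC livers and 5.64, 5.95, 3.45, 4.52 and 4.14 in MYC+Ex3 livers. Every MYC+Ex3 liver lay above every WT and Ex3 liver, while MYC livers spanned most of the range. MYC+Ex3 livers had 2.19 times the WT mean, a log2 change of 0.86 ± 0.189 (SE, limma adjusted p = 0.00208), which was 1.19 in keratin-free libraries alone (limma adjusted p = 0.0142). Against Ex3 livers the log2 change was 0.57 ± 0.189 (limma adjusted p = 0.035) and 0.93 in keratin-free libraries. That call was lost without MYC+Ex3 liver replicate 1 (0.0908), 2 (0.1) or 4 (0.055), and without Ex3 liver replicate 1 (0.0876), 4 (0.0544) or 5 (0.0619), all as limma adjusted p. Neither MYC alone (log2 change 0.41, limma adjusted p = 0.129) nor Ex3 alone (0.29, limma adjusted p = 0.991) passed the test against WT. The difference of MYC+Ex3 from MYC livers was 0.46 with a 95% interval of 0.06 to 0.85 (limma adjusted p = 1), and the interaction term was 0.17 (-0.39 to 0.72).

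In tumours the same gene showed its largest differences. Its RPKM was 0.525 to 1.15 (median 0.909) in the 7 4-OHT livers. The MYC tumours had 1.01, 4.41 and 6.51 RPKM. The MYC+Ex3 tumours had 9.76, 9.42 and 11.9 RPKM, or 1001 to 1308 reads. MYC tumour replicate 1 was inside the range of the 4-OHT livers, its other replicates were above it, and the MYC+Ex3 tumours were above all of them. The log2 change was 1.2 ± 0.281 in MYC tumours (limma adjusted p = 0.00295) and 2.59 ± 0.281 in MYC+Ex3 tumours (limma adjusted p = 4.02e-06). The fold of mean RPKM was 4.45 and 11.6. Against only the 3 controls whose label numbers begin with S15, the MYC value was 1.08 (limma adjusted p = 0.0501), and against the 4 of the S14 set 1.30 (limma adjusted p = 0.013). Between genotypes the log2 change was 1.38 ± 0.333 (limma adjusted p = 0.0315). It was 0.83 without MYC tumour replicate 1 and 1.78 without replicate 3, both still called. This call was lost without MYC+Ex3 tumour replicate 1 (limma adjusted p = 0.0845), 2 (0.0795) or 3 (0.127). It was also lost with a pseudocount of 0.1 (0.0614), with no filter (0.0652), with a sex covariate (0.0627) and with only the 6 tumours in the fit (0.294).

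Markers of cells other than hepatocytes also differed in these comparisons. Of 8 macrophage markers, 7 were lower in MYC tumours and 6 in MYC+Ex3 tumours than in 4-OHT liver (limma), with a summed RPKM of 109 to 148 in the livers, 26.7 to 114 with MYC and 48.6 to 59.7 with MYC+Ex3. Of 8 stellate and fibroblast markers, 3 were higher and 3 lower with MYC and 2 higher and 5 lower with MYC+Ex3. In MYC+Ex3 tumours 3 of 8 hepatocyte markers, 2 of the 3 lymphocyte markers tested and 1 of the 2 cholangiocyte markers tested were lower, and in MYC tumours 0 of each. Of 7 endothelial markers, 5 were lower in each, and 4 of the 5 erythroid markers in the table were higher in MYC+Ex3 tumours, with sums of 71.5 to 86.7 against 18.4 to 37.8. After rescaling, a check added after the data were seen, 5 of 8 hepatocyte markers were lower in MYC tumours and 7 in MYC+Ex3 tumours. Then 7 macrophage and 6 endothelial markers were lower in each genotype. Stellate and fibroblast markers had 2 higher and 4 lower with MYC and 1 higher and 6 lower with MYC+Ex3. Of erythroid markers, 1 was lower with MYC and 3 were higher with MYC+Ex3. None of these markers was at 0 throughout, and their part in the results was not tested. In such whole-tissue RNA, fewer cells of a type and less RNA per cell cannot be told apart. At day 4, 1 macrophage marker was higher in MYC livers, though the median log2 change of that list was -0.28. Of 7 endothelial markers 0 were higher and 1 lower there. Of 8 stellate and fibroblast markers 2 were higher and 1 lower, and 1 hepatocyte marker was lower. In MYC+Ex3 against WT, 1 stellate and fibroblast marker was higher and 2 lower, and 1 hepatocyte marker was lower. Against Ex3, 1 hepatocyte and 1 cholangiocyte marker were lower. The sums overlapped between all day 4 groups. After rescaling, 3 of 7 endothelial markers and 1 cholangiocyte marker were lower than in WT in both MYC and MYC+Ex3 livers. MYC+Ex3 livers then also had 2 hepatocyte markers and 1 macrophage marker lower, with 1 stellate and fibroblast marker higher and 3 lower. Against Ex3, rescaling added 1 endothelial and 2 stellate and fibroblast markers as lower.

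Slc3a2, the shared heavy chain, was called higher in MYC livers and in MYC+Ex3 tumours. It was 20.8, 23.4, 32.2, 20.2 and 23.8 RPKM in WT livers and 30.2, 33.4, 32, 31.9 and 38.1 in MYC livers. MYC livers lay above all WT livers except WT replicate 3. The mean was 1.38 times that of WT, a log2 change of 0.46 ± 0.133 (limma adjusted p = 0.0175). The call was lost in keratin-free libraries alone (0.35, limma adjusted p = 0.231) and without WT liver replicate 4 (0.40, limma adjusted p = 0.0506). In MYC+Ex3 livers the values were 34.3, 31.8, 20.7, 32.4 and 29.8, with replicate 3 apart from the rest, and the log2 change of 0.30 did not pass (limma adjusted p = 0.114). Without that replicate it was 0.42 (limma adjusted p = 0.0148), and without WT replicate 3 it was 0.40 (limma adjusted p = 0.0264). Of the 20 refits that left out 1 library only these 2 passed, and the limma adjusted p of the others went up to 0.255. In tumours Slc3a2 was 7.83, 8.38 and 9.47 RPKM with MYC and 9.80, 10.8 and 12 with MYC+Ex3, against 6.20 to 8.38 (median 7.50) in 4-OHT liver. Only the MYC+Ex3 tumours lay wholly above the controls, with a log2 change of 0.49 ± 0.112 (limma adjusted p = 0.00159). After rescaling that change was 0.23 (limma adjusted p = 0.0429). The MYC value of 0.18 was not called (limma adjusted p = 0.197) and turned to -0.06 after rescaling.

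The light chain also changed relative to the heavy chain. Their ratio was chosen after its values were seen, as was the ratio of Slc7a1 to Slc7a2 below, and 16 exact permutation tests were made over both. The RPKM of Slc7a5 per Slc3a2 was 0.0804, 0.0915, 0.072, 0.0745 and 0.135 in WT livers and 0.165, 0.187, 0.166, 0.14 and 0.139 in MYC+Ex3 livers. MYC+Ex3 livers were above every WT and MYC liver. The mean was 0.159 ± 0.0204 (SD, n = 5) against 0.0906 ± 0.0257 in WT, 1.76 times (exact permutation p = 0.00794, adjusted 0.0254), and against 0.0975 ± 0.0306 in MYC, 1.63 times (exact permutation p = 0.00794, adjusted 0.0254). A p of 0.00794 is the smallest that 5 against 5 allows. Against Ex3 (0.115 ± 0.0217) it was 1.39 times (exact permutation p = 0.0238, adjusted 0.0423). In MYC livers the ratio was 1.08 times that of WT (exact permutation p = 0.714). In the tumour arm it was 0.0648 to 0.181 (median 0.125) in 4-OHT livers, 0.129, 0.527 and 0.687 in MYC tumours, and 0.996, 0.87 and 0.989 in MYC+Ex3 tumours. The light chain thus approached the heavy chain in RPKM in MYC+Ex3 tumours, 7.72 times the control mean (two-sided exact permutation p = 0.0167, adjusted 0.0333). That p is the smallest that 3 against 7 allows. The MYC tumours, with replicate 1 inside the control range, did not reach the threshold (exact permutation p = 0.0667, adjusted 0.107), and 3 tumours against 3 cannot go below 0.1.

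**Figure D2:**
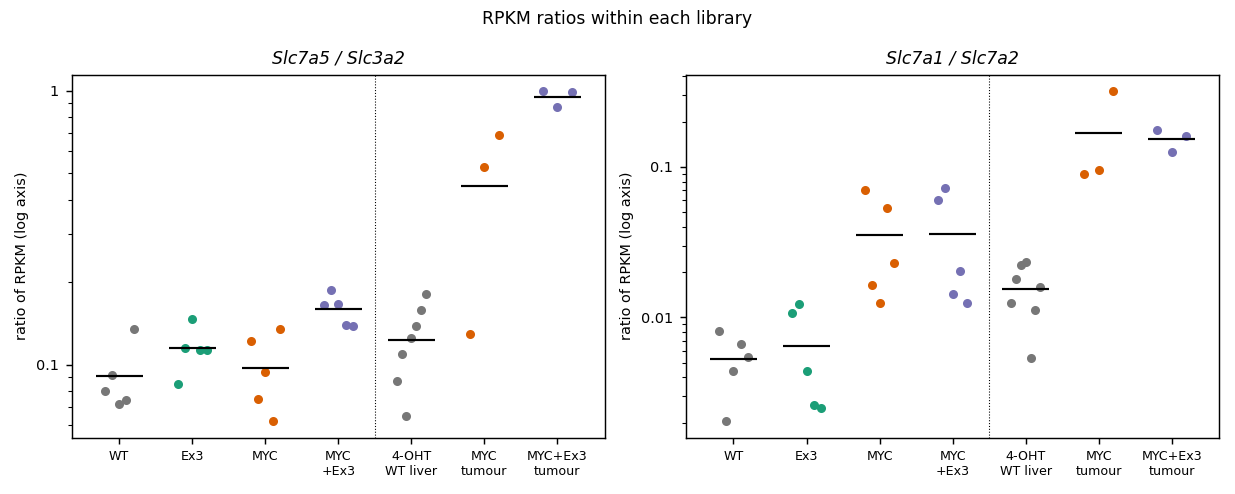
RPKM of Slc7a5 divided by that of Slc3a2 (left) and of Slc7a1 divided by that of Slc7a2 (right) in each library, on log y axes. Points are libraries, lines group means, and the dotted line separates the arms; the 3 MYC+Ex3 tumours sit between 0.87 and 0.996 in the left panel, above every other library.

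Slc43a1 (LAT3), a carrier of large neutral amino acids that needs no heavy chain, was evenly high in tumours. It was 5.01, 5.52 and 5.23 RPKM in MYC tumours and 5.73, 6.29 and 6.60 in MYC+Ex3 tumours. The 4-OHT livers had 0.462 to 1.93 (median 1.72). All tumours lay above all controls, and their spread was narrow. The log2 change was 1.37 ± 0.182 with MYC (3.56 times, limma adjusted p = 4.98e-05) and 1.58 ± 0.182 with MYC+Ex3 (4.21 times, limma adjusted p = 6.67e-06). The tumour genotypes differed by 0.20, with a 95% interval of -0.26 to 0.67. At day 4 the WT livers were themselves uneven at 2.03, 6.97, 6.00, 2.74 and 2.54, and overlapped the MYC livers (4.78 to 7.28) and the MYC+Ex3 livers (3.71 to 7.97). The log2 changes of 0.61 in MYC and 0.65 in MYC+Ex3 were not called (adjusted p of 0.119 and 0.0961 by limma). Without WT replicate 2 the MYC value was 0.81 (limma adjusted p = 0.0444) and the MYC+Ex3 value 0.84 (limma adjusted p = 0.0335), and without MYC+Ex3 replicate 3 the latter was 0.81 (limma adjusted p = 0.0412). These were the only passes among the 20 refits of each that left out 1 library. The limma adjusted p of the others went up to 0.265 for MYC and 0.221 for MYC+Ex3. In MYC+Ex3 against Ex3 the change was 0.75 (limma adjusted p = 0.0585), and 1.46 in keratin-free libraries (limma adjusted p = 0.016). It was 0.91 without MYC+Ex3 replicate 3 (limma adjusted p = 0.0248), 0.93 without Ex3 replicate 5 (limma adjusted p = 0.0239) and 0.81 with a sex covariate (limma adjusted p = 0.0396), and it also passed when WT replicate 1 (limma adjusted p = 0.0498) or 2 (0.041) was left out. Of the 20 refits that left out 1 library, 4 thus passed, and the limma adjusted p of the others went up to 0.156.

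Slc7a6 (y+LAT2), which pairs with Slc3a2 and exchanges cationic for neutral amino acids, rose in MYC+Ex3 tumours. It was 3.44, 2.25 and 4.22 RPKM there. The 4-OHT livers had 0.118 to 0.253 (median 0.210), from 17 to 47 reads each. The MYC tumours had 0.173, 0.664 and 6.64. MYC+Ex3 tumours were above all controls, whereas the MYC tumours ran from inside the control range to the highest value of the arm. The log2 change with MYC+Ex3 was 1.81 ± 0.393 (16.3 times, limma adjusted p = 0.00118). With MYC it was 1.03 ± 0.393 (limma adjusted p = 0.0407), and without MYC tumour replicate 3 it was 0.22 (limma adjusted p = 0.333). That call was also lost when any of the 7 4-OHT livers was left out (limma adjusted p = 0.0553 to 0.0594) and without MYC+Ex3 tumour replicate 1 (0.0509). Rescaling (0.053), a sex covariate (0.0529), no filter (0.0755) and either set of controls (0.117 and 0.164) ended it too. The genotypes differed by 0.78, which was not called (limma adjusted p = 0.42), by 1.6 without MYC tumour replicate 3 (limma adjusted p = 0.000287) and by 0.24 without replicate 1 (limma adjusted p = 0.794). At day 4 the gene was 0.548 to 0.883 in WT, 0.310 to 0.621 in Ex3, 0.681 to 1.59 in MYC and 0.359 to 1.04 in MYC+Ex3 livers, and no difference was called.

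Slc7a1 (CAT1), the arginine and lysine carrier of proliferating cells, was higher in day 4 livers with the MYC allele and in tumours. In WT livers it was 0.667, 0.372, 0.455, 0.824 and 0.505 RPKM, from 12 to 29 reads. In MYC livers it was 3.71, 1.52, 1.23, 3.38 and 2.15, and in MYC+Ex3 livers 3.83, 3.87, 1.25, 2.76 and 1.66. Ex3 livers had 0.949, 1.19, 0.560, 0.343 and 0.490. All livers with the MYC allele were above all those without it. The log2 change was 1.06 ± 0.236 in MYC (4.24 times, limma adjusted p = 0.00267) and 1.17 ± 0.236 in MYC+Ex3 (4.74 times, limma adjusted p = 0.00101), with 1.06 in MYC+Ex3 against Ex3 (limma adjusted p = 0.00266). In keratin-free libraries alone the MYC value was 0.96 and no longer called (limma adjusted p = 0.0598), and that of MYC+Ex3 was 1.64 (limma adjusted p = 0.00654). With a pseudocount of 0.1 the changes were 1.83 and 1.98. Adding Ex3 to MYC made a difference of 0.11, with a 95% interval of -0.38 to 0.60, and Ex3 alone 0.11 (-0.38 to 0.60).

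In tumours Slc7a1 was 2.17, 1.86 and 4.77 RPKM with MYC and 3.52, 3.40 and 4.20 with MYC+Ex3. The 4-OHT livers had 0.170 to 0.485 (median 0.315). All 6 tumours lay above all 7 livers. Every tumour carried MYC and every control was wild-type liver, so MYC and tumour state cannot be told apart in this arm. The log2 change was 1.51 ± 0.176 (9.34 times, limma adjusted p = 1.83e-05) and 1.84 ± 0.176 (11.8 times, limma adjusted p = 1.32e-06), and 2.79 and 3.24 with a pseudocount of 0.1. The genotypes differed by 0.33 (limma adjusted p = 0.451), and by 0.64 without MYC tumour replicate 3 (limma adjusted p = 0.0149). That was the only pass among 13 refits that left out 1 library, where the limma adjusted p went up to 0.803.

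Slc7a2 (CAT2), the abundant cationic carrier of hepatocytes, did not rise with it. It was 81.6, 182, 104, 124 and 93.2 RPKM in WT livers. It was 52.7, 93.1, 98.8, 63.4 and 94.0 in MYC livers, 53.7 to 136 in MYC+Ex3 livers and 89.2 to 197 in Ex3 livers. The groups overlapped, and MYC livers lay mostly at the lower end. The highest Slc7a2 values approached the highest RPKM of any gene at day 4 (220 to 396). Whether differences are compressed there, also in the ratio below, was not tested. The log2 change in MYC was -0.52, with a 95% interval of -1.10 to 0.06 (limma adjusted p = 0.188). The authors' deposited table gives -0.62 for it with an adjusted p of 0.0496. In tumours the log2 changes were -0.13 with MYC and 0.19 with MYC+Ex3, neither called, and the latter was -0.09 after rescaling. The ratio of Slc7a1 to Slc7a2 was 0.00204 to 0.00818 in WT livers, 0.0124 to 0.0703 in MYC and 0.0125 to 0.0721 in MYC+Ex3 livers. It was 6.58 times WT in MYC and 6.73 times in MYC+Ex3, without overlap (exact permutation p = 0.00794 each, adjusted 0.0254). In 4-OHT livers the ratio was 0.00534 to 0.0235, in MYC tumours 0.0892, 0.0953 and 0.32, and in MYC+Ex3 tumours 0.176, 0.126 and 0.16. That is 10.8 and 9.91 times the controls (exact permutation p = 0.0167 each, adjusted 0.0333), and 5.95 times for MYC without tumour replicate 3, where 2 against 7 cannot go below p = 0.0556. Even so, Slc7a2 stayed the more abundant of the pair in RPKM in all 33 libraries.

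The system A carriers showed no called difference in any comparison in which they were tested, though some refits called Slc38a4 or Slc38a2 lower. Slc38a4 (SNAT4), a carrier typical of liver, was 148 to 216 RPKM (median 170) in WT livers, 135 to 164 (median 137) in MYC and 112 to 181 (median 174) in MYC+Ex3 livers. Its log2 change in MYC livers was -0.29, with a 95% interval of -0.58 to -0.01 (limma adjusted p = 0.13). The authors' deposited table gives -0.40 with an adjusted p of 0.0429. In keratin-free libraries its change in MYC+Ex3 against WT was -0.41 (limma adjusted p = 0.0465). With array weights it was -0.43 against WT (limma adjusted p = 0.00749) and -0.47 against Ex3 (limma adjusted p = 0.00152). Its level is near the upper end of RPKM in these libraries, and whether differences are compressed there was not tested. In tumours it was 27.0 to 49.9, with MYC replicate 1 the highest, against 25.9 to 35.8 in 4-OHT liver. Slc38a2 (SNAT2), the system A carrier that cells induce when amino acids are scarce, was 44.8 to 86.2 in WT, 52.5 to 93.4 in Ex3, 49.9 to 58.9 in MYC and 55.8 to 72.3 in MYC+Ex3 livers. Without WT replicate 1 its change in MYC livers was -0.43 (limma adjusted p = 0.0383), and in keratin-free libraries 0.02. Tumours had 14.3 to 20.5 and 4-OHT livers 12.3 to 20.1. Its intervals were -0.63 to 0.04 for MYC against WT at day 4, and -0.32 to 0.26 and -0.07 to 0.51 for MYC and MYC+Ex3 tumours. After rescaling, the tumour changes of Slc38a4 turned from 0.17 to -0.09 with MYC and from 0.11 to -0.18 with MYC+Ex3, and that of Slc38a2 with MYC+Ex3 from 0.22 to -0.06. Slc38a1 (SNAT1), a glutamine carrier that is low in liver, was 0.851 to 1.88 RPKM over the 20 day 4 livers. In tumours it was 0.182, 0.905 and 0.559 with MYC and 0.578, 0.599 and 0.427 with MYC+Ex3, against 0.464 to 0.955 in 4-OHT livers. MYC tumour replicate 1 and MYC+Ex3 tumour replicate 3 lay below that range, and the other 4 tumours inside it.

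Slc7a11 (xCT), which imports cystine in exchange for glutamate and so feeds glutathione synthesis, stayed low. It was 1.73 to 2.28 RPKM in WT, 1.58 to 2.30 in Ex3 and 1.29 to 2.76 in MYC+Ex3 livers. MYC livers had 2.27, 1.42, 2.15, 5.78 and 2.25, of which replicate 4 stood above all other livers. The log2 change in MYC was 0.24 (limma adjusted p = 0.434), and 0.0038 without MYC replicate 4 (limma adjusted p = 0.991). Tumours had 0.363 to 0.552 RPKM and 4-OHT livers 0.374 to 0.472, under the level tested. Fitted without a filter, its tumour changes were 0.09 and 0.02, and those of Slc38a1 were -0.13 and -0.12, for MYC and MYC+Ex3 in turn. Several annotated genes overlap Slc7a11, and Slc7a5 and Slc7a2 each have an annotated gene on the opposite strand, but none of these is in the table. The kit keeps strand, and whether counting used it is not given in the sources used here.

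**Figure D3:**
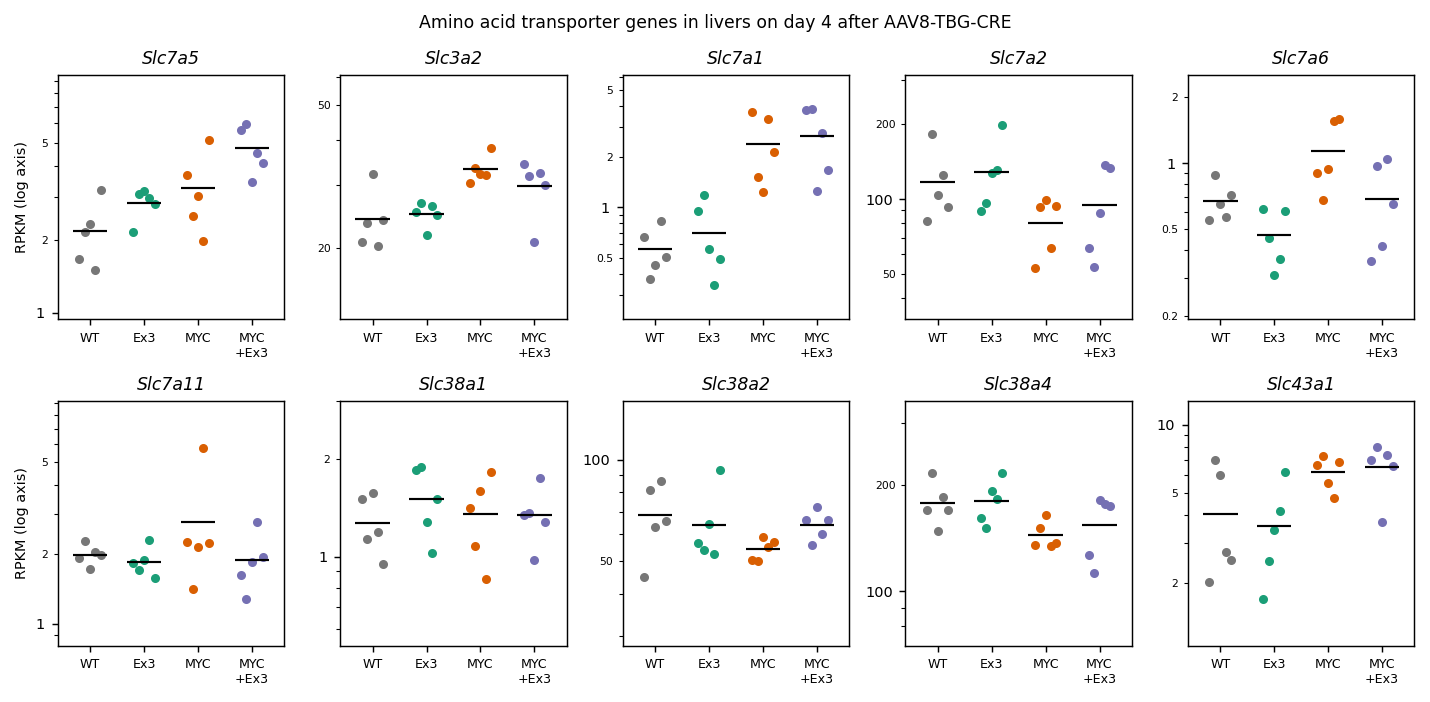
RPKM (log y axes, a separate scale for each gene) of the 10 transporter genes in each day 4 liver, 5 per group; points are libraries and lines group means. Slc7a1 separates all livers with the MYC allele from those without it, and every MYC+Ex3 value of Slc7a5 is above every WT value.

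**Figure D4:**
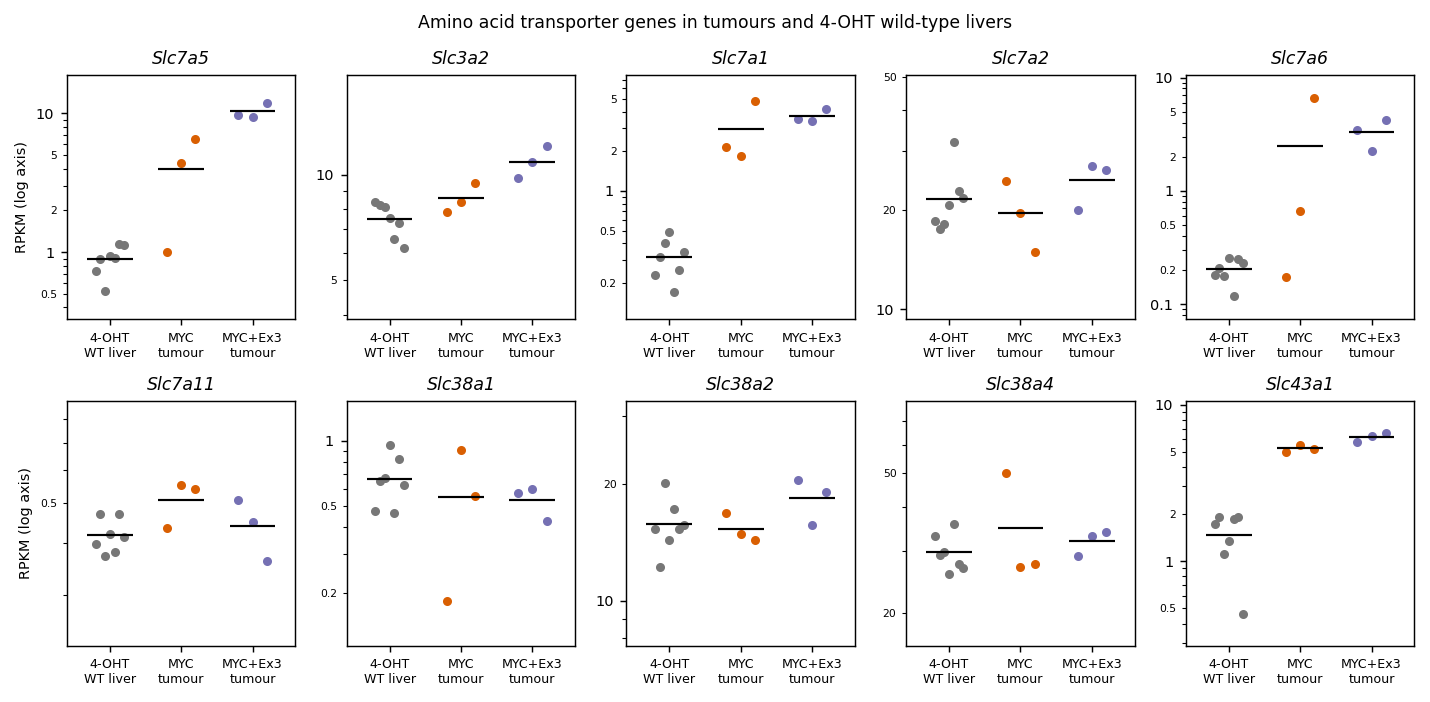
RPKM (log y axes, a separate scale for each gene) in 7 4-OHT wild-type livers, 3 MYC tumours and 3 MYC+Ex3 tumours; points are libraries and lines group means. Slc7a1 and Slc43a1 are above the livers in all 6 tumours, while MYC tumour replicate 1 lies among the livers for Slc7a5 (1.01) and Slc7a6 (0.173).

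The 3 MYC tumours differed from each other in many of these genes. Replicate 1 had the lowest Slc7a5, Slc3a2, Slc7a6, Slc7a11, Slc38a1 and Slc43a1 of the 3 and the highest Slc7a2, Slc38a2 and Slc38a4. Replicate 3 had the highest Slc7a5, Slc3a2, Slc7a1 and Slc7a6. The SD over 3 tumours was larger with MYC than with MYC+Ex3 for 6 members, such as Slc7a5 (2.77 against 1.35 RPKM) and Slc7a1 (1.6 against 0.43). It was smaller for the other 4, Slc3a2 (0.834 against 1.12), Slc43a1 (0.256 against 0.442), Slc38a2 (1.32 against 2.45) and Slc7a11 (0.0644 against 0.0735).

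For Slc7a1 the authors' deposited table lists a log2 fold change of 1.68 in MYC livers and 1.92 in MYC+Ex3 livers, with adjusted p-values of 3.25e-06 and 5.20e-09. For Slc7a5 in MYC+Ex3 livers the authors' deposited table lists 0.99 (adjusted p = 0.000195). In tumours the authors' deposited table calls Slc7a5 (1.73 with MYC, 3.24 with MYC+Ex3), Slc7a6 (2.65 and 3.70), Slc7a1 (2.79 and 3.25) and Slc43a1 (1.53 and 1.81), and Slc3a2 with MYC+Ex3 (0.33). Over all genes it calls 6922 of 15552 with MYC and 10091 of 16637 with MYC+Ex3. Slc3a2 in MYC livers, which limma called, is not called in the authors' deposited table (0.35, adjusted p = 0.0627). Between the tumour genotypes the authors' deposited table calls 0 members, beside 615 of 13710 genes. There the authors' deposited table lists 0.99 for Slc7a5 (adjusted p = 0.157) and 0.14 for Slc7a6 (adjusted p = 0.947).

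Of 31 further amino acid carriers, 20 were tested at day 4, and the shares of all genes called are those given for the members. The neutral amino acid carriers Slc1a4 and Slc1a5, of which Slc1a5 (ASCT2) brings in glutamine, were the only carriers called with Ex3 alone, by 2.05 and 1.23 on the log2(RPKM + 1) scale (adjusted p of 0.0123 and 0.0128 by limma). With MYC, Slc1a5 rose by 0.96 while the glutamate carrier Slc1a2 fell by 2.06 and the betaine carrier Slc6a12 fell by 0.87, so 1 was higher and 2 lower. With MYC+Ex3, 3 were higher and 2 lower, led by Slc1a4 (2.48) and Slc1a5 (2.28). MYC+Ex3 livers differed from MYC livers in 3 of 20, Slc1a2 (2.40), Slc1a4 (1.80) and Slc1a5 (1.32), all higher. For Slc1a5 the mean RPKM was 2.13 in WT, 6.34 in Ex3, 5.01 in MYC and 13.9 in MYC+Ex3 livers. In tumours 22 were tested, with 4 higher and 5 lower with MYC, led by Slc1a2 (-2.71), Slc6a9 (-1.10) and Slc6a19 (1.09). With MYC+Ex3 7 were higher and 7 lower, led by Slc1a5 (2.46), Slc36a2 (1.39) and Slc1a4 (1.26). The 4-OHT livers had at most 0.0174 RPKM of Slc36a2 and 0.0876 of Slc6a19. These genes could pass the filter only if they were high in tumours, so the counts of this list in tumours give no support by themselves. Between the genotypes 4 were higher in MYC+Ex3 and 2 lower, led by Slc1a2 (3.37), Slc1a4 (1.89) and Slc1a5 (1.54). After rescaling, a check of the lists added after the data were seen, the counts were 1 higher and 9 lower with MYC and 5 higher and 7 lower with MYC+Ex3, and 1 higher and 4 lower in MYC livers.

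Genes of the ATF4 response, which cells turn on when amino acids run short, were counted in the same way. Of 23 tested at day 4, 10 were higher and 1 lower in MYC livers, where 16.9% of all genes were higher and 5.36% lower, with a median of 0.27 beside 0.07 over all genes. The leading genes were those of serine synthesis, Psat1 (2.70) and Phgdh (2.44), and the factor Atf3 (1.73). With MYC+Ex3, 10 were higher and 2 lower, led by Phgdh (2.97), Psat1 (2.92) and the one-carbon enzyme Mthfd2 (1.92). The rise was not shared by all genes linked to ATF4. Mean RPKM in WT, MYC and MYC+Ex3 livers was 107, 102 and 102 for Atf4 itself. It was 15.7, 16.6 and 15.6 for Ddit3, and 8.63, 4.84 and 1.42 for Chac1. In MYC tumours 11 of 22 were higher and 0 lower, where 36.2% of all genes were higher, led by Phgdh (4.37), the asparagine synthetase gene Asns (3.89) and Psat1 (3.22), with a median of 0.49 beside 0.19. In MYC+Ex3 tumours 12 were higher and 2 lower, led by Phgdh (4.45), Asns (4.29) and Psat1 (3.89). Phgdh was 0.094 to 0.342 RPKM in the 4-OHT livers, so it could pass the filter only if it was high in tumours. The list was also chosen with earlier results of these data known. Its counts and medians in tumours therefore give no support by themselves. Against Ex3 livers, those of MYC+Ex3 had 10 higher and 2 lower. Rescaling left 10 higher and 1 lower in MYC livers, 9 higher and 4 lower in MYC tumours and 11 higher and 3 lower in MYC+Ex3 tumours. For Ex3 against WT, 0 were called by limma and 1 had an unadjusted p under 0.05, and for MYC+Ex3 against MYC the counts were also 0 and 1. Between tumour genotypes 0 were called by limma and 6 had an unadjusted p under 0.05.

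Among the genes through which amino acids reach mTORC1, 3 of 23 were higher and 0 lower in MYC livers, beside 16.9% of all genes higher, Rragb (0.93), Mlst8 (0.72) and Lamtor3 (0.34), of which Rragb encodes a Rag GTPase and Mlst8 a subunit of the kinase complex. In MYC+Ex3 livers 3 were higher, Mlst8 (0.66), Nprl3 (0.48) and Lamtor3 (0.35). In tumours 8 of 21 were higher and 1 lower with MYC, led by Rragd (1.92), and 10 higher and 1 lower with MYC+Ex3, again led by Rragd (1.53). The shares of all genes called higher there were 36.2% and 42.3%, so these counts lie near the background. After rescaling the counts were 3 higher and 1 lower with MYC and 7 higher and 4 lower with MYC+Ex3. Of 10 NRF2 targets, the antioxidant genes with which Slc7a11 is often grouped, 3 were higher and 1 lower in MYC livers and 4 higher in MYC+Ex3 livers, led by Nqo1 (1.18). Of all genes, 16.9% and 17.9% were higher and 5.36% and 6.18% lower there. In MYC tumours 0 were higher and 3 lower, Me1 (-1.33), Nqo1 (-1.15) and Srxn1 (-1.15), and in MYC+Ex3 tumours 2 were higher and 1 lower. The shares of all genes called lower in these tumours were 13.7% and 18.4%. After rescaling 0 were higher and 1 lower in MYC livers, 4 higher and 1 lower in MYC+Ex3 livers, 0 higher and 5 lower in MYC tumours and 2 higher and 4 lower in MYC+Ex3 tumours. Over all genes rescaling gave 3124 lower in MYC tumours and 3621 in MYC+Ex3 tumours, of 11854 tested. In both of these lists limma called 0 genes for Ex3 against WT and for MYC+Ex3 against MYC, with 0 at an unadjusted p under 0.05.

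The genes whose log2(RPKM + 1) followed Slc7a5 most closely were named as a description. Over the 20 day 4 livers and 11731 genes they were Ipo9 (Pearson r = 0.84), Mphosph9 (0.83), Csnk1g1 (0.82), Hirip3 (0.81) and Ly75 (0.81). Over the 13 libraries of the tumour arm and 9237 genes they were Hsd3b1, Ccdc68, Lgals2, Gpc3 and Atp4a, with r from 0.98 to 0.99. These libraries share groups and depth differences, so the correlations have no test. Gpc3 was 0.156 to 0.529 RPKM in 4-OHT livers, 0.571 to 11.6 in MYC tumours and 20.0 to 23.7 in MYC+Ex3 tumours.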

How the data were processed

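Total RNA libraries, made with a stranded kit per the labels' protocols, gave 1 deposited table of RPKM with the authors' log2 fold changes and adjusted p-values. The submitters' processing notes name TopHat2 2.0.8, SAMtools, featureCounts 1.4.5-p1, DESeq2 and mm9, without roles. Each deposited RPKM was a whole multiple of 1 read for all 20485 genes not at 0 (relative tolerance 1e-05), and 0 columns were set aside. The main test was limma 3.58.1 (R 4.3.3) on log2(RPKM + 1), with all 20 livers of day 4 or all 13 libraries of the tumour arm in a fit, genes with an RPKM of at least 1 in at least 3 libraries, and Benjamini-Hochberg adjustment over all genes tested (threshold 0.05). A count test was not run, since the unit is RPKM. The ratios were tested with exact two-sided permutation tests (scipy 1.17.1). All 10 members are named. Of each other list, at most the 3 called genes with the largest change per comparison are named, and for likeness the 5 genes with the highest Pearson r to Slc7a5 among tested genes of mean RPKM at least 2. Atf4, Ddit3 and Chac1 are given besides. The members and lists were chosen with earlier results of these data known. Alternatives varied the pseudocount, filter, scaling, covariates, weights and libraries. The fit was tested on simulated data. Figures used matplotlib 3.10.9.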

Additional observations from a re-analysis of the deposited data

Results flagged for a closer look

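Of 50 groups of 4 to 10 libraries examined over the 10 members, 3 held a library far from the others, where chance alone gives about 1 in 20 groups, or 2.5. Slc7a2, the hepatocyte carrier of cationic amino acids, was 31.9 RPKM in 4-OHT wild-type liver replicate 5, and 17.4 to 22.7 in the other 6. Slc7a11, the cystine carrier, was 5.78 RPKM in MYC liver replicate 4, the keratin-bearing library of that group, and 1.42 to 2.27 in the other 4. Slc38a2, a system A carrier, was 93.4 RPKM in Ex3 liver replicate 5, and 52.5 to 64.3 in the other 4.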

How the results depend on the processing

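Over 384 refits of the 16 called differences of members, 352 kept the call, 32 lost it and 0 changed direction. These include refits without a library of a group outside the comparison, which cannot move its log2 change. Refits in which the filter removed the member were not counted. The share that kept the call therefore overstates how stable the calls are. The numbers of members called changed as follows, and the cause was not tested unless fewer genes or libraries entered. With a pseudocount of 0.1, with a sex covariate and with only the groups compared, 0 members were called between the tumour genotypes. Without a filter the counts were 1 for MYC+Ex3 against Ex3 and 0 between the tumours. With a filter at RPKM 5, which removes low members, they were 1 in each of the 3 comparisons of livers with MYC, 2 in MYC tumours and 3 in MYC+Ex3 tumours. With array weights they were 6 for MYC+Ex3 against WT, 6 against Ex3 and 3 for MYC against WT, where Slc43a1 was added (0.79, limma adjusted p = 0.0272). A sex covariate added Slc43a1 in MYC+Ex3 against Ex3. The call of Slc7a6 in MYC tumours was lost without a filter, after rescaling, with a sex covariate and against either set of controls. In keratin-free livers the count was 0 for MYC against WT. Against the S15 controls it was 2 in MYC tumours. Leaving out a library gave 1 to 3 in MYC livers, 2 to 4 in MYC+Ex3 against WT, 1 to 4 against Ex3, 3 to 4 in MYC tumours, 5 to 5 in MYC+Ex3 tumours and 0 to 3 between tumours. Over all genes, Ex3 against WT had 18 calls (62 with weights, 31 with sex, 2 keratin-free) and MYC+Ex3 against MYC 26 (78 with weights, 10 without a filter, 10 with only these groups, 11 with a pseudocount of 0.1, 6 keratin-free). MYC against WT had 3047 (1249 keratin-free), MYC+Ex3 against WT 3301 (6416 with weights) and against Ex3 2893 (6707 with weights). MYC tumours had 5907 (3636 at RPKM 5), MYC+Ex3 tumours 7189 (4278 at RPKM 5) and the tumours between them 489 (240 at RPKM 5, 311 with weights, 70 with only these groups). Leaving out a library gave 5 to 22 calls for Ex3 against WT, lowest without Ex3 replicates 3 or 4 or WT replicates 4 or 5. It gave 7 to 37 for MYC+Ex3 against MYC, where 8 libraries mattered: replicates 1, 2, 3 and 5 of MYC+Ex3 or 1 to 4 of MYC. Between the tumours it gave 199 to 764, low without any MYC+Ex3 tumour and high without MYC replicates 2 or 3. Leaving out libraries from the ratios was chosen after seeing the data. No paired analysis was made, because the labels give the groups no shared replicate numbers. Some day 4 livers of all 4 groups have label numbers close together. The labels do not say what these numbers mean, and no term for them was fitted. Depth limits Slc7a1, Slc7a6 and Slc7a5 most, at 12 to 50 reads in a WT liver.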
